A study of Mus musculus with 8 samples.

Results

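Gzmk-bearing CD8 T cells with little checkpoint receptor RNA made up 887 of the 25172 cell barcodes kept from 4 single-cell expression libraries, and 887 of the 8973 kept barcodes that passed as CD8 T cells. Members were chosen by measured counts. A barcode needed 500 or more unique molecular identifiers (UMIs, counted RNA molecules) from 300 or more genes, with no more than 10% of them mitochondrial. It also had at least 2 UMIs of Cd3d, Cd3e and Cd3g together, none of Cd79a, Ms4a1 or Cd4, at most 2 of C1qa, C1qb and C1qc together and at least 1 of Cd8a or Cd8b1. Of the genes that name the class, it had at least 1 Gzmk UMI and fewer than 2 UMIs of Pdcd1, Lag3, Havcr2 and Tnfrsf9 together. The genes of this rule were used to choose the members, so their levels are a description and nothing is tested with them.

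Leukocytes carrying CD45 were sorted from the submandibular salivary gland and its draining lymph nodes of 4 mice labelled SS and 4 control mice, all about 12 weeks old. The labels do not spell out SS or give a strain. Glands were digested with collagenase in the warm and nodes were only triturated. Each of the 4 combinations of genotype (SS or control) and tissue (gland or node) has 1 expression library and 1 T cell receptor library. The expression libraries are named C1 to C4, which matches no label, so none could be tied to a genotype or a tissue. The values below are therefore given per library, with no comparison of SS with control mice or of gland with node, and no test. The receptor libraries were not analysed here. Intervals are 95% exact binomial intervals for shares and exact Poisson intervals for levels, and cover counting error alone.

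Granzyme K is a serine protease of cytotoxic granules, and CD8 T cells that carry it are known from inflamed tissues, where they make chemokines as well as granule proteins. Checkpoint receptors such as PD-1 (Pdcd1) and LAG-3 rise on T cells that meet antigen for long. Memory CD8 cells that recirculate through blood and lymph nodes carry the interleukin 7 receptor and the factor KLF2, which cells lodged in tissue lose to varying degrees. Gzmk lies at chr13:113171630-113180965 of mouse build mm10, near its paralogue Gzma at chr13:113093824-113100981.

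The members were spread unevenly over the libraries. C1 held 89 members, which were 39.4% of its 226 CD8 barcodes (interval 33.0% to 46.1%). C2 held 467, or 20.1% of 2322 (18.5% to 21.8%). C3 held 320, or 5.99% of 5344 (5.37% to 6.66%), and C4 held 11, or 1.02% of 1081 (0.509% to 1.81%). These 4 intervals did not overlap. The libraries held between 37902916 and 77819179 UMIs, and the median member had 6341 UMIs (C1), 4790 (C2), 6028.5 (C3) and 7362 (C4). To compare at equal depth, barcodes of at least 4042 UMIs were thinned to that number before the gate was applied, and shallower ones were left out. These were 15 of the CD8 barcodes (C1), 603 (C2), 218 (C3) and 61 (C4), with 7, 139, 51 and 0 members among them. The member shares were then 36.5%, 23.8%, 5.73% and 1.05%, in the same order. Values called thinned below rest on both changes, except the Itga4 shares of C3, where barcodes were thinned after the gate.

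The remaining CD8 barcodes of each library differed in kind. Barcodes with at least 2 checkpoint UMIs, called checkpoint-high here whatever their Gzmk, numbered 1739 in C2 and were 74.9% of its CD8 barcodes. Barcodes with Ccl5 (the chemokine CCL5 of memory and effector CD8 cells) but no Gzmk and fewer than 2 checkpoint UMIs numbered 4447 in C3, or 83.2% of its CD8 barcodes. In C4, 775 barcodes, or 71.7%, had neither Gzmk nor Ccl5. C1 was more evenly divided, with 61 checkpoint-high and 61 Ccl5-bearing barcodes beside its 89 members.

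**Figure D1:**
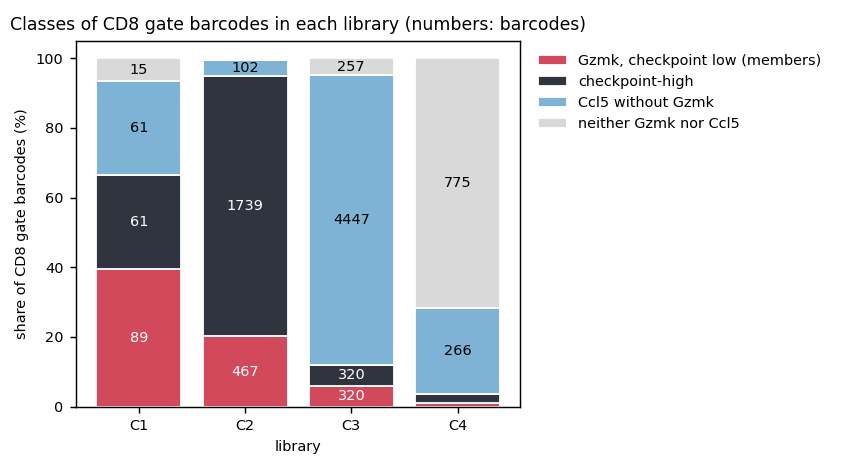
Stacked bars give the share (%) of CD8 gate barcodes in each class for libraries C1 to C4, with the number of barcodes printed in the larger segments. Members fill 39.4% (C1), 20.1% (C2), 5.99% (C3) and 1.02% (C4), and a different class is the largest of the others in C2, C3 and C4.

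C2 had most of the Gzmk. It was found in 2020 CD8 barcodes there (87.0%), in 540 in C3 (10.1%), in 127 in C1 (56.2%) and in 13 in C4 (1.20%). Members made up 70.1% of these Gzmk-bearing barcodes (C1), 23.1% (C2), 59.3% (C3) and 84.6% (C4). The rest had at least 2 checkpoint UMIs, among them 1553 of the 2020 in C2. Gzmk was rare in barcodes that should lack it. C1q-rich barcodes without CD3 had a Gzmk UMI in 0.261% of cases in C1 (median 6313.5 UMIs) and 0.274% in C2 (8926). B cell barcodes had one in 0.149% of cases in C3 (5196) and in 0 of 1849 in C4 (3896), which allows up to 0.162%. Against this level, the 1.20% of C4 CD8 barcodes with Gzmk stood above background, but rested on 13 barcodes. CD4-bearing T cell barcodes, which the rule leaves out, also carried Gzmk. Their share with a Gzmk UMI was 7.81% (C1), 61.1% (C2), 21.8% (C3) and 0 of 1589 (C4), which allows up to 0.189%.

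The class is described here by 5 marker genes, of which Cd8a and Gzmk belong to the rule. All 5 were chosen with earlier results of these data known, so they are no independent check of the class name. Levels are UMIs of a gene per 1000000 UMIs (CPM), summed over the members of a library. Gzmk stood at 414.9 (C1), 1024 (C2), 532.2 (C3) and 385.6 (C4). Cd8a stood at 1008, 856.4, 415.6 and 457.9. C2 had the highest Gzmk, and C1 and C2 had the higher Cd8a.

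Ccl5 was not required of members, and stood at 9792 (C1), 17920 (C2), 19420 (C3) and 10300 (C4). It was found in 89 of 89, 466 of 467, 315 of 320 and 10 of 11 members. Ccl5 was also found in barcodes of other cell types. C1q-rich barcodes without CD3 had a Ccl5 UMI in 18.7% of cases in C1 and 39.5% in C2, at 254.3 and 251.6 CPM. B cell barcodes had one in 12.8% of cases in C3 and 0.541% in C4, at 15.14 and 10.51 CPM. The members' Ccl5 level was above those levels in each library. Whether the Ccl5 of these other barcodes was free RNA or their own was not tested.

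Ctla2a, which encodes a cysteine protease inhibitor made by activated T cells, stood at 473.7, 909.0, 1009 and 397.6 in C1 to C4. It has a close paralogue in Ctla2b, so its counts may be shared with that gene. Itga4, the alpha-4 integrin chain used by T cells to enter inflamed tissue, stood at 269.4, 417.4, 463.9 and 530.2. An Itga4 UMI was present in 60 of 89, 349 of 467, 255 of 320 and 10 of 11 members. Both genes were thus present in most members of every library, and neither was absent from the other CD8 classes. Ctla2a was 1.17-fold, 3.14-fold and 2.38-fold the level of Ccl5-bearing barcodes without Gzmk in C1, C2 and C3, and Itga4 was 1.18-fold, 0.941-fold and 1.29-fold the level of barcodes rich in checkpoint RNA.

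The spread between members of a library was wide. Per barcode, the median Ccl5 count was 92.2 per 10000 UMIs (C1), 152.6 (C2), 199.9 (C3) and 137.6 (C4), and in C2 it ran from 63.9 at the 10th percentile to 381.3 at the 90th. The median Gzmk count was 3.68, 9.47, 4.70 and 2.93 per 10000 UMIs, which is a few molecules in a typical barcode. A member with 1 Gzmk UMI therefore lay close to the sampling limit.

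The edges of the rule were gradual in some genes and steep in others. In C3, members with exactly 1 Gzmk UMI (80 barcodes) had an Itga4 level of 349.4 CPM, and those with 2 or more (240 barcodes) had 506.9. Barcodes just outside, with no Gzmk and the same checkpoint limit (4704 barcodes), had 22.65, so the Gzmk edge was steep for Itga4 in C3. At the checkpoint edge, C3 members with 1 checkpoint UMI had an Itga4 level of 595.3 CPM, and Gzmk barcodes with 2 had 599.6. In C2 the same edge was smooth for Ccl5, at 19630 inside and 21510 outside, while Ly6c2 stood at 902.4 with no checkpoint UMI, 556.9 with 1 and 341.0 with 2. The other libraries differed. In C3, Ccl5 went from 22780 inside to 18750 outside and Ly6c2 from 754.1 to 708.6. In C1, with 28 barcodes inside and 13 outside, Itga4 went from 336.8 to 257.4 and Ly6c2 from 1456 to 881.2, while members with no checkpoint UMI had a Ly6c2 level of 1025. Ly6c2 was lower just outside the checkpoint limit than just inside it in C1, C2 and C3. The gap was small in C3, and in C1 it rested on few barcodes and did not fall at each step. No intervals were computed at these edges. Itga4 and Ccl5 had no common direction.

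Among the genes of cytotoxic granules, the members carried the shared machinery in each library and differed mainly in the granzymes. Nkg7, a granule membrane protein needed for degranulation, stood at 2550 (C1), 3518 (C2), 2614 (C3) and 1711 (C4). Srgn, the proteoglycan that packs granule proteases, stood at 1426, 1116, 514.0 and 385.6. Gzmb, the apoptosis-inducing granzyme B, stood at 438.1, 484.8, 67.02 and 0, where 0 in C4 allows up to 36.15. Gzmb was thus several times higher in C1 and C2 than in C3. It moved with the settings, to 664.1 in C1 and 106.6 in C3 after thinning, and to 283.8 and 44.56 with a checkpoint sum of 0.

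Gzma, the granzyme encoded beside Gzmk, stood at 681.2 (C1), 62.29 (C2) and 22.19 (C3), and was not detected in C4, where 0 allows up to 36.15. It was present in 20 of the 89 members of C1, 30 of 467 in C2 and 13 of 320 in C3, so a minority carried it. Gzmc, a granzyme of tissue-type innate lymphocytes, stood at 95.98 in C1, 4.662 in C2 and 0 in C3 (up to 1.306) and C4 (up to 36.15). C1 was highest in both genes. A Gzmc UMI was present in 7 of 89 members of C1 and 2 of 467 of C2. With a checkpoint sum of 0 the Gzmc level was 13.51 in C1, and after thinning it was 11.41 in C2. Free RNA, taken from barcodes with at least 50 and fewer than 200 UMIs, held 84.28 CPM of Gzmc in C1 and 5.723 in C2, close to the members' levels. C1 members also held more natural killer cell markers than the others: the 8 genes of that list summed to 611.5 CPM (C1), 57.21 (C2), 7.833 (C3) and 24.10 (C4). Of these, Fcer1g stood at 213.6 in C1, and at 85.58 with a checkpoint sum of 0. Ncr1, the marker that defines that lineage, had a UMI in 4 of 89 members (C1), 2 of 467 (C2) and none of 320 (C3) or 11 (C4). The part of such cells in the granzyme levels of C1 was not tested.

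**Figure D2:**
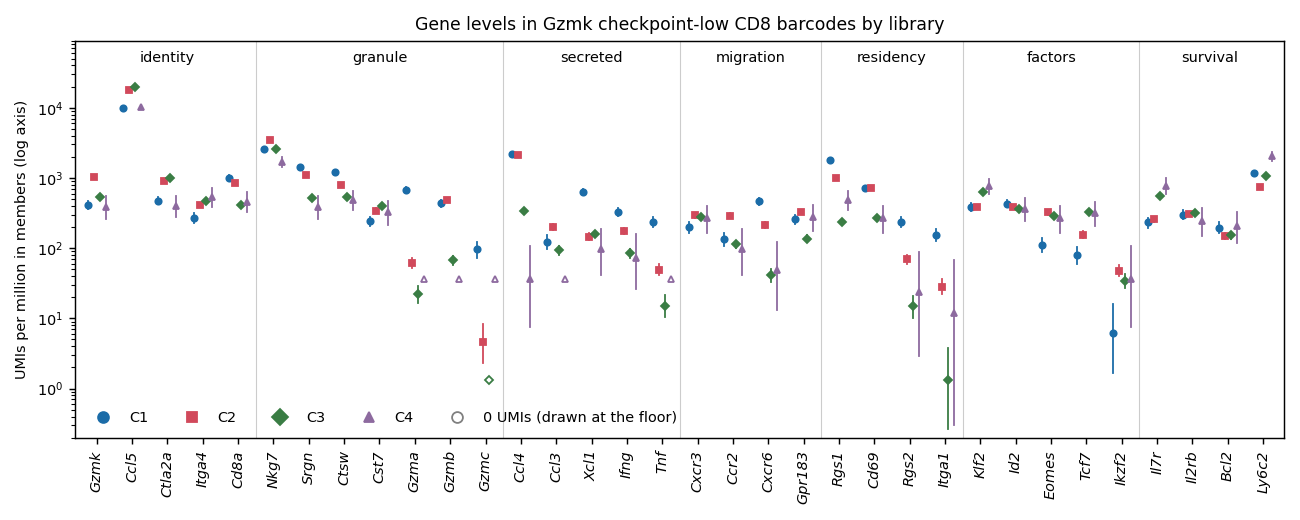
Points give the level of named genes in the members of each library, as CPM on a log axis, with 95% Poisson intervals, and open points mark 0 UMIs, drawn at the level 3 UMIs would give. Ccl5 and Nkg7 lie close together in the 4 libraries, while Cxcr6, Rgs1 and Itga1 are higher in C1 than in C3, and Il7r is higher in C3 than in C1.

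Secreted factors followed the same split. Ccl4, an inflammatory chemokine made by activated T cells, stood at 2180 (C1), 2104 (C2), 342.5 (C3) and 36.15 (C4). Ifng, interferon gamma, stood at 326.7, 176.3, 83.99 and 72.30. Tnf stood at 238.4, 49.58, 15.23 and 0 (up to 36.15 in C4). Levels of Ccl4, Ifng and Tnf were higher in C1 and C2 than in C3. Xcl1, the chemokine that attracts cross-presenting dendritic cells, was instead high in C1 alone, at 640.9 against 145.8 in C2, 160.6 in C3 and 96.39 in C4. After thinning, C1 stood at 4180 for Ccl4, 634.8 for Ifng and 1253 for Xcl1, and C3 at 269.1 for Xcl1. Without the secreted genes' leading member Ccl5, the 15 other genes of the list summed to 4593, 3624, 1828 and 1458.

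Of the homing receptors, Cxcr6 separated C1 and C2 from C3 and C4 and Cxcr3 did not. Cxcr3, the receptor for interferon-induced chemokines, was similar in the 4 libraries, at 198.2, 294.5, 275.9 and 265.1. Cxcr6, a receptor of cells lodged in tissue, stood at 467.5, 212.7, 40.91 and 48.20. Ccr2, a receptor for inflammatory monocyte chemokines, stood at 133.1, 289.4, 113.6 and 96.39, and C2 was highest. Gpr183, a receptor that guides cells by oxysterols, stood at 258.5, 327.2, 136.6 and 277.1.

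Genes of tissue residency ran parallel to Cxcr6. Rgs1, a brake on chemokine receptor signals, stood at 1827, 997.6, 239.4 and 482.0. Itga1, the alpha-1 chain of a collagen-binding integrin, stood at 153.3, 28.39, 1.306 and 12.05. Cd69, which holds cells in tissue and also rises on activation, stood at 709.0, 723.4, 266.3 and 265.1. The 10 residency genes together summed to 4398 (C1), 2232 (C2), 730.2 (C3) and 951.9 (C4).

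Early response genes, which also rise during warm enzymatic digestion, moved with them. The 16 genes of that list summed to 9197 (C1), 7107 (C2), 2948 (C3) and 3615 (C4). Fos stood at 936.6, 525.9, 179.7 and 253.0, and the heat shock gene Hspa1b at 148.6, 19.92, 0.4352 and 0. Cd69, Rgs1 and the early response genes were all higher in C1 than in C3. The part of digestion in the residency and cytokine levels was not tested.

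Among fate transcription factors, Id2 was even over the libraries and Tcf7 was not. Id2, which supports effector differentiation, stood at 431.9, 383.5, 361.2 and 361.5. Eomes, a T-box factor of memory and Gzmk-bearing CD8 cells, stood at 111.5, 322.1, 284.2 and 265.1, and C1 was lowest. Tcf7, which encodes the factor TCF-1 of naive and self-renewing cells, stood at 78.95, 156.4, 322.9 and 313.3. Ikzf2 stood at 6.192 (C1), 47.89 (C2), 34.38 (C3) and 36.15 (C4).

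Genes of naive and memory cells, as a sum, were higher in C3 and C4 than in C1 and C2, the other way from residency genes. Il7r, the interleukin 7 receptor that supports survival, stood at 232.2, 258.5, 554.0 and 771.1. Klf2, the factor that maintains recirculation, stood at 390.1, 382.2, 631.9 and 759.1. The 15 genes of the list summed to 2551 (C1), 2279 (C2), 4007 (C3) and 5253 (C4). Ly6c2, the leading gene of the list, stood at 1160, 731.0, 1054 and 2024, and was not higher in C3 than in C1. Il2rb and Bcl2, which support survival, lay within a narrow range, at 241.0 to 314.2 and 149.2 to 204.8. Members in C3 and C4 were thus higher in the recirculation and survival genes Klf2 and Il7r, and not in Bcl2.

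Inhibitory receptors that the rule does not name were present. Tigit stood at 164.1 (C1), 327.6 (C2), 126.6 (C3) and 48.20 (C4). Ctla4 stood at 114.6, 205.1, 88.34 and 60.25. C2, the library with the most checkpoint-high barcodes, was highest in both. Cycling barcodes, taken as those with 2 or more UMIs of Mki67, Top2a, Birc5, Cdk1 and Ccnb2, were 5.62% of members (C1), 6.21% (C2), 7.19% (C3) and 0 of 11 (C4), and the intervals of C1 to C3 overlapped.

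Costimulatory and natural killer type receptors completed the surface profile. Cd27, which sustains memory cells, stood at 54.18, 189.4, 203.2 and 241.0, and C1 was lowest. Slamf6, a receptor of less differentiated T cells, stood at 15.48, 50.43, 109.7 and 192.8, in the same order of libraries as Tcf7 up to C3. Icos, a costimulator induced on activation, stood at 126.9, 128.0, 29.59 and 72.30. Klrc1, the inhibitory NKG2A chain, varied less, at 266.3, 201.3, 187.1 and 192.8. Icos thus sided with the residency genes, and Cd27 and Slamf6 with the recirculation genes.

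An interferon-induced gene and leukocyte adhesion genes varied less between libraries. Ifi27l2a, induced by interferon, stood at 704.4, 754.7, 529.6 and 554.3. Selplg, the ligand of P-selectin, stood at 789.5, 887.4, 792.5 and 650.7, and Itgb2 at 510.9, 526.8, 403.9 and 361.5. C2 was highest in each of these 3 genes.

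To see what sets members apart from other CD8 cells of the same library, they were compared first with the Ccl5-bearing barcodes that lacked Gzmk. A gene was counted when its level differed by more than 2-fold, among genes with at least 100 UMIs over both classes and without the genes of the rule or Ccl5. C4 had too few members for this. The comparison describes 3 libraries and has no replicates. In C1, 14 of 1365 genes were higher (1.03%) and 6 lower (0.44%). In C2, 109 of 3759 were higher (2.9%) and 30 lower (0.798%), and in C3 390 of 9638 were higher (4.05%) and 316 lower (3.28%).

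These counts depended on few barcodes in C1 and C2. A single C1 member of 71067 UMIs, 71.1% of them salivary epithelial genes, held 11.0% of all UMIs of C1 members. A single Ccl5-bearing barcode of C2 with 97472 UMIs, 70.6% of them salivary, held 17.8% of its class. Above 5% salivary UMIs lay 1 of 89 members of C1, 40 of 467 of C2 and none of C3 or C4. Without such barcodes, 5 of 1350 genes were higher in C1 and 41 of 3533 in C2. The 10 salivary genes summed to 84070 CPM in members (C1), 20770 (C2), 5.657 (C3) and 12.05 (C4). The part of salivary RNA in the other gene levels was not tested.

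Of 1346 genes measured in all 3 libraries, 2 were more than 2-fold higher in members in each, Ccl4 and Ccr2. Ccl4 was higher 3.11-fold in C1 (interval 2.74 to 3.54), 2.91-fold in C2 (2.63 to 3.23) and 4.11-fold in C3 (3.80 to 4.44). Across the alternatives its ratio stayed between 2.09 and 5.07. Ccl4 overlaps Ccl3 in the annotation, on chr11:83648624-83664683 and chr11:83647843-83649378, so reads in the shared stretch could be counted to either. Ccl3 was also higher, by 3.59-fold in C1, 2.61-fold in C2 and 17.8-fold in C3, though C1 held under 100 Ccl3 UMIs.

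Ccr2, the receptor that brings cells from blood to inflamed tissue, was higher 2.10-fold in C1 (1.34 to 3.4), 4.16-fold in C2 (3.0 to 5.93) and 2.02-fold in C3 (1.77 to 2.30). Its lowest ratio over the alternatives was 1.85 in C1 and 1.79 in C3. Members were thus higher than the Gzmk-negative class in an inflammatory chemokine and in a homing receptor.

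Tigit, an inhibitory receptor, was higher 1.47-fold in C1 (1.03 to 2.12), 2.45-fold in C2 (1.93 to 3.16) and 8.83-fold in C3 (7.66 to 10.2). Nkg7 was higher 1.29-fold, 1.96-fold and 1.79-fold. Eomes was higher 3.32-fold in C2 (2.51 to 4.47) and 2.21-fold in C3 (2.03 to 2.39), and 2.86-fold in C1, where under 100 UMIs were counted. The other genes ranked highest were Wbp2, Calm3, Supt4a, Itgb2 (an integrin chain of leukocytes), Lgals1 (galectin-1) and Hist1h2ap (a histone gene of many near-identical copies). Hist1h2ap fell to a ratio of 0.167 under an alternative in C1. That alternative required a checkpoint sum of 0.

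Fcer1g, a signalling adaptor of natural killer and myeloid cells, was the 1 gene more than 2-fold lower in each library. It stood at 213.6 against 479.3 in C1, 23.31 against 89.71 in C2, and 0 (up to 1.306) against 5.843 in C3. In C3, where 58 of 4447 Ccl5-bearing barcodes had an Fcer1g UMI, 0 of 320 members did. Thinned to equal depth, the C3 ratio reversed to a log2 ratio of 2.643. Bcl2 was lower, at 0.749 times the level of the Ccl5-bearing class in C1, 0.783 times in C2 and 0.494 times in C3. The kinase adaptor Pag1 was lower, at 0.636 times, 0.528 times and 0.360 times, and Malt1, Myc, Pde4b and Inpp4b were also lower in all 3.

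**Figure D3:**
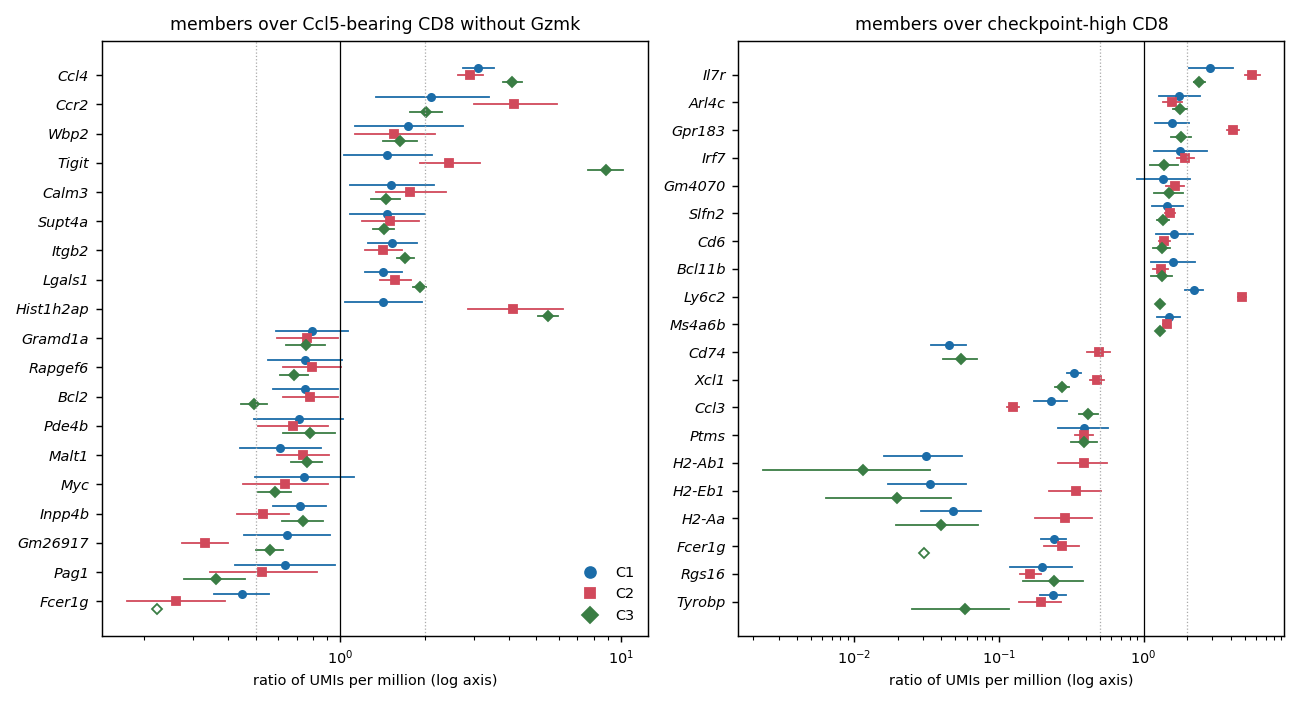
Points give the ratio of levels, members over the other class, on a log axis for libraries C1 to C3 with 95% counting intervals, for the highest and lowest ranked genes of each comparison. Dotted lines mark 2-fold, and open points are bounds from 0 UMIs. Ccl4 and Ccr2 lie beyond 2-fold in each library on the left and Il7r on the right.

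Itga4 and Ctla4 stood further apart in C3 than in C1 or C2. Itga4 was higher in C3 members than in the Ccl5-bearing class by 24.1-fold (22.0 to 26.5), at 463.9 against 19.21. The interval of the ratio included 1 in C1 (1.13-fold, 0.877 to 1.46) and in C2 (1.00-fold, 0.865 to 1.16). Members' own Itga4 level was alike in C2 and C3, while the Ccl5-bearing class stood at 417.4 in C2. For a share at equal depth, barcodes were gated first and thinned to 4042 UMIs afterwards, without a new gate. An Itga4 UMI was then found in 71.0% of C3 members and 4.22% of the Ccl5-bearing class.

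Klrg1, a receptor of terminal effector cells, was found in 42 of 320 members of C3 and in 2 of 4447 Ccl5-bearing barcodes. Ctla4 was 11.4-fold higher in C3 members (9.51 to 13.6), against 0.841-fold in C1 and 0.896-fold in C2. Ly6c2, a memory marker with a near-identical neighbour in Ly6c1, was lower in C3 members, at 1054 against 2656, and was lower, at 0.764 times in C1 and 0.825 times in C2. Granzymes stood apart in more than 1 library. Gzma was 11.2-fold higher in C1 members (7.49 to 17.5), 2.83-fold in C2 (1.57 to 5.61) and 21.8-fold in C3, where under 100 UMIs were counted. Gzmb was 8.19-fold higher in C3 members (6.73 to 9.93) and 2.10-fold in C2 (1.75 to 2.55), or 1.34-fold after thinning, and 0.753-fold in C1. Members and the Gzmk-negative class thus stood far apart in Itga4 and Ctla4 in C3, and close together in C1 and C2.

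Gene lists were counted over their measured genes, those with at least 100 UMIs. Over all such genes, 1.03% were higher and 0.44% lower in C1, 2.9% and 0.798% in C2, and 4.05% and 3.28% in C3. Lists with few measured genes cannot be weighed against these shares. The cell cycle list had 8 of 14 measured genes past 2-fold higher in C3 and none lower, with a median log2 ratio of 1.20 beside 0.14 over all genes. In C2 it had 1 of 5 higher, and in C1 none of 2. The fate transcription factors had 8 of 21 higher and 2 lower in C3, where 4.05% of all genes were higher and 3.28% lower, with a median of 0.42 beside 0.14. Eomes, Tox, Id2, Zeb2, Prdm1, Bcl6, Batf and Ikzf2 were higher and Lef1 and Zfp683 lower. In C2 they had 2 of 14 higher, Eomes and Batf, and none lower, with a median of 0.003 beside 0.23. In C1 they had none of 8 higher and 1 lower, with a median of -0.15 beside -0.08. Naive and memory genes had none of 15 higher and 5 lower in C3, with a median of -0.52. In C2 they had none of 11 higher and 1 lower, with a median of -0.34 beside 0.23 over all genes. In C1 they had none of 7 higher and 1 lower, Tcf7, with a median of -0.42 beside -0.08. Early response genes had at most 1 of their measured members past 2-fold in either direction in each library.

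Members were next compared with checkpoint-high CD8 barcodes, of which 62.3% in C1, 89.3% in C2 and 68.8% in C3 carried Gzmk. In C1, 15 of 1590 genes were higher in members (0.943%) and 22 lower (1.38%). In C2, 88 of 8405 were higher (1.05%) and 436 lower (5.19%), and in C3 16 of 6156 were higher (0.26%) and 309 lower (5.02%). Checkpoint-high barcodes were deeper, with medians of 7352, 5306 and 7959.5 UMIs, and a sum of checkpoint UMIs is reached more easily in a deep barcode. Thinned before the gate, fewer genes reached 100 UMIs, and 189 of 6520 were lower in C2 and 17 of 2438 in C3, while C1 held too few checkpoint-high barcodes.

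Il7r was the 1 gene of 1564 that was more than 2-fold higher in members in each library. It was higher 2.89-fold in C1 (2.05 to 4.16), 5.64-fold in C2 (5.01 to 6.36) and 2.44-fold in C3 (2.23 to 2.66), and its lowest ratio over the alternatives was 1.84, in C3. Gpr183 was higher 1.57-fold, 4.14-fold and 1.81-fold. Ly6c2 was higher 2.23-fold, 4.8-fold and 1.31-fold. The interferon-induced factor Irf7 was higher 1.78-fold, 1.94-fold and 1.39-fold, and Arl4c, Gm4070, Slfn2, Cd6, Bcl11b and Ms4a6b completed the 10 genes ranked highest. A survival receptor and a memory marker were thus higher where checkpoint RNA was low.

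C2 showed this most. There Tcf7 was 4.34-fold higher in members (3.76 to 5.01), Klf2 4.21-fold (3.85 to 4.61) and Cxcr3 2.13-fold (1.95 to 2.33). Of the naive and memory genes, 8 of 12 measured were past 2-fold higher in C2 and 1, Il2rb, lower, with a median log2 ratio of 1.59 beside -0.11 over all genes. In C3 the count was 2 of 14, Il7r and Igfbp4, with a median of 0.48. In C1 it was 2 of 6, Il7r and Ly6c2, and 1 lower, Il2rb, with a median of 0.20 beside -0.13. Over all measured genes, 1.05% were higher and 5.19% lower in C2, 0.26% and 5.02% in C3, and 0.943% and 1.38% in C1. Cxcr6 was lower in C2 members (0.347-fold), and not in C1 (1.19-fold) or C3 (1.08-fold).

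Genes lower in members included chemokines and a signalling brake. Ccl3 was lower, at 0.228 times the checkpoint-high level in C1 (0.176 to 0.294), 0.125 times in C2 (0.114 to 0.137) and 0.416 times in C3 (0.356 to 0.484). Xcl1 was lower, at 0.332 times, 0.477 times and 0.274 times. Rgs16, a regulator of G protein signals that rises in activated T cells, was lower, at 0.198 times, 0.165 times and 0.242 times, and Ptms was lower, at 0.385 times, 0.389 times and 0.386 times. Gzmb was lower, at 0.359 times, 0.687 times and 0.325 times. Ptms, a small chromatin-associated protein, had nearly the same ratio in the 3 libraries.

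The other genes more than 2-fold lower in each library were Tyrobp, Fcer1g, H2-Aa, H2-Eb1, H2-Ab1 and Cd74, which are genes of natural killer, B or antigen-presenting cells. H2-Aa stood at 30.96 in members against 648.0 in C1, 9.323 against 32.42 in C2 and 4.787 against 121.5 in C3. Without the 5% of barcodes with the highest doublet scores, the C1 ratio of H2-Aa went from 0.0478 to 1.13, and that of H2-Eb1 from 0.0333 to 1.26. After thinning, Fcer1g and Tyrobp turned higher in C3 members, at log2 ratios of 2.275 and 0.959. In C3 a Tyrobp UMI was present in 6 of 320 members and 5 of 320 checkpoint-high barcodes, and an Fcer1g UMI in 0 and 5, so these ratios rested on few barcodes. Natural killer genes summed to 2788 CPM in checkpoint-high barcodes of C1, 255.2 in C2 and 105.6 in C3. An Ncr1 UMI was present in 14 of 61 checkpoint-high barcodes of C1. The part of such barcodes in these ratios was not tested.

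The cell cycle list differed by library. In C3, 13 of 14 measured genes were past 2-fold lower in members, with a median log2 ratio of -2.12 beside -0.12. In C2, 6 of 14 were lower, with a median of -0.86, and in C1 none of 3 passed. Over all measured genes, 5.02% were lower in C3, 5.19% in C2 and 1.38% in C1. Mki67 stood at 48.74 in members against 254.9 in C3 and 67.38 against 119.9 in C2. In C1 it stood at 54.18 against 9.337, where under 100 UMIs were counted. With a checkpoint sum of 0 the C1 members stood at 18.02. Cycling barcodes, as taken above, were 5 of 89 members and 4 of 61 checkpoint-high barcodes of C1. After thinning, the log2 ratio of Mki67 in C3 was -0.07. At the depth of the files, members of C3 lay between the Ccl5-bearing and the checkpoint-high barcodes in Mki67, and after thinning that difference from the checkpoint-high class was not seen.

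**Figure D4:**
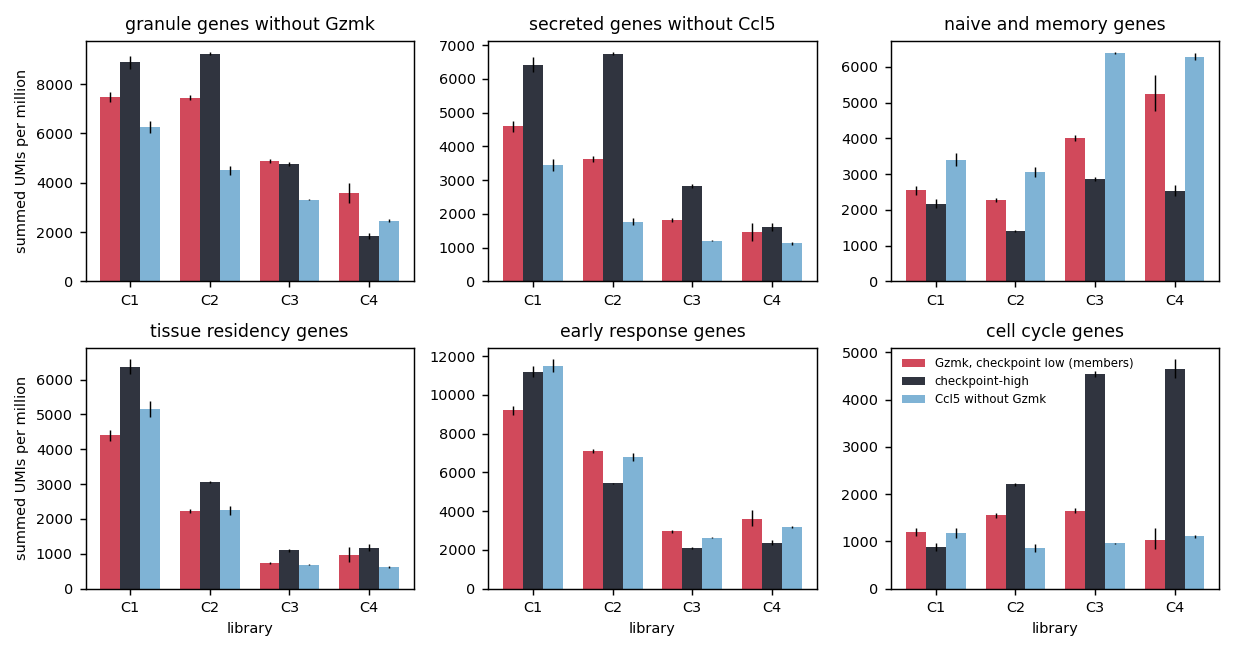
Bars give the summed level of 6 gene lists, in CPM with 95% Poisson intervals, in members, checkpoint-high barcodes and Ccl5-bearing barcodes without Gzmk of libraries C1 to C4. Naive and memory genes in members lie between the other classes in each library, and cell cycle genes are highest in checkpoint-high barcodes of C2, C3 and C4.

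The lists placed members between the other classes in several respects. Naive and memory genes summed to 2551 in C1 members, against 3404 in the Ccl5-bearing and 2172 in the checkpoint-high class. The same order held in C2 (2279 against 3054 and 1411), C3 (4007 against 6390 and 2855) and C4 (5253 against 6287 and 2540). Secreted genes without Ccl5 summed to 3624 in C2 members, against 1772 and 6744, and members lay between the other classes in each of the 4 libraries. Granule genes without Gzmk lay between the others in C1 and C2, at 7463 against 6244 and 8877 in C1, and above both in C3 and C4.

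Each T cell carries as a rule 1 rearranged beta V gene, so the V gene with the most UMIs in a barcode describes how members differ among themselves. The rule did not use it. A V gene could be assigned to 86 of 89 members in C1 and 449 of 467 in C2, and likewise to 308 of 320 in C3 and each of the 11 in C4, with ties left out. More than 1 beta V gene had a UMI in 35, 151 and 126 members of C1, C2 and C3. In C1, Trbv5 led with 17 barcodes (19.8%, 12.0% to 29.8%), followed by Trbv29 with 16 and Trbv12-2 with 11. In C2, Trbv3 led with 60 (13.4%, 10.4% to 16.9%), followed by Trbv13-2 with 48 and Trbv17 with 38. In C3, Trbv13-2 led with 51 (16.6%, 12.6% to 21.2%), followed by Trbv3 with 36.

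**Figure D5:**
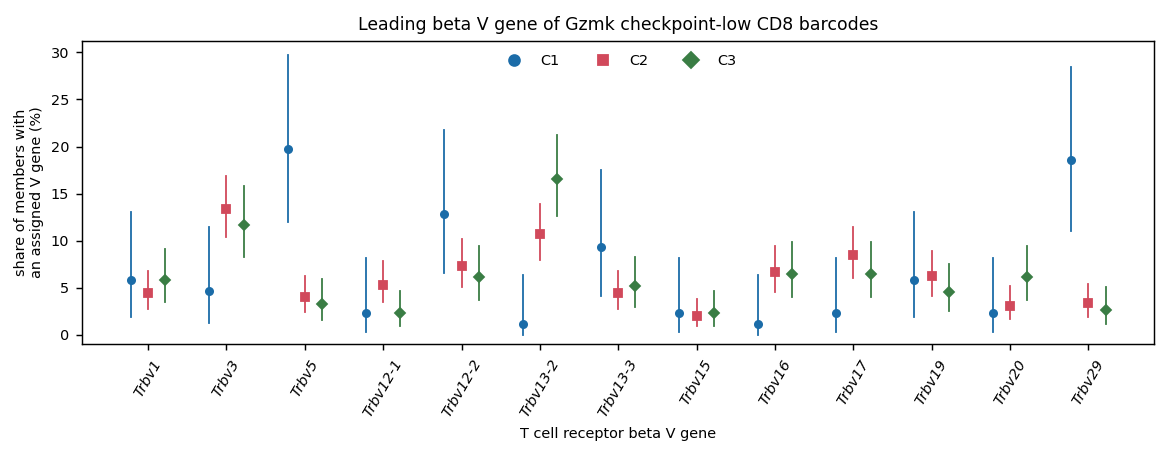
Points give the share (%) of members whose most abundant beta V gene is the one named, in libraries C1 to C3, with 95% exact binomial intervals. Trbv5 and Trbv29 are high in C1, and Trbv3 and Trbv13-2 are the highest in C2 and C3.

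The 3 most frequent V genes held 51.2% of C1 members, 32.5% of C2 members and 34.7% of C3 members. The effective number of V genes (the inverse of the summed squared shares) was 8.85 in C1, 14.6 in C2 and 13.4 in C3. In the Ccl5-bearing class of the same libraries it was 11.8, 13.2 and 16.1, and in checkpoint-high barcodes 9.92, 15.8 and 15.0. The 3 most frequent V genes held 44.1% of checkpoint-high barcodes in C1. Of C1, C2 and C3, C1 had the lowest effective number in each of these 3 classes, from 86, 58 and 59 barcodes, so the low number was not particular to its members. C1 members held 18 different V genes, against 17 and 18 in the other classes.

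Alpha and beta V genes were also paired within a barcode. A pair is no clonotype, since no junction sequence was read, and several alpha V genes have near-identical copies. In C1, 9 of 65 members with both chains had Trbv5 with Trav1 (13.8%, 6.53% to 24.7%). The same pair was in 3 of 48 checkpoint-high and 0 of 46 Ccl5-bearing barcodes of C1 (up to 6.52%), and in 0 of 336 members of C2 (up to 0.893%) and 0 of 228 of C3 (up to 1.32%). Among Ccl5-bearing barcodes of C3 it was in 2 of 3217. The repeated pair was thus seen in members of C1 alone among the libraries.

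Members of C2 and C3 shared several repeated pairs. Trbv17 with Trav5-4 was in 12 of 336 members of C2 (3.57%) and 6 of 228 of C3 (2.63%), and in 11 of 1336 checkpoint-high barcodes of C2. In C3 it was in 1 of 3217 Ccl5-bearing barcodes. Trbv5 with Trav6-3 was in 8 members of C2 and 6 of C3, and in 13 checkpoint-high barcodes of C2. In C3 it was in 4 of 3217 Ccl5-bearing barcodes. These pairs were picked from the most repeated ones among members, so a higher share in members than elsewhere is in part set by that choice. The Ccl5-bearing barcodes of C3 had a leading pair of their own, Trbv20 with Trav13-2, in 111 of 3217 (3.45%).

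In all, 60 pairs occurred among members of both C2 and C3, which were 29.9% of the 201 pairs of C2 and 38.7% of the 155 pairs of C3. Of these, 5 were seen at least 3 times in each: the 2 above, Trbv14 with Trav16d-dv11, Trbv13-2 with Trav16 and Trbv13-2 with Trav13-3. C1 shared 12 of its 46 pairs with C2 (26.1%) and 9 with C3 (19.6%), and none was seen 3 times in both. C1 had 65 members with both chains, against 336 in C2 and 228 in C3, so few of its pairs could reach 3. Pairs shared between libraries were not counted in the other CD8 classes. C2 and C3 shared 42 kept barcode sequences, and no barcode was a member in more than 1 library. Of these sequences, 5 belonged to members of C2 and 2 to members of C3. Whether these pairs mark the same clones was not tested.

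Beside the salivary and natural killer genes above, markers of other cell types were counted within the members. Macrophage and monocyte genes summed to between 115.3 and 204.8 CPM over the 4 libraries, and Adgre1 was at 0 in each. Gamma-delta receptor genes (Trdc or Trdv4) had a UMI in 2 of 89, 9 of 467, 7 of 320 and 0 of 11 members. Foxp3 had one in 0, 2, 2 and 0 members. A Cd8b1 UMI was present in 96.6%, 92.5% and 91.6% of members of C1, C2 and C3, so most carried the beta chain of conventional CD8 cells.

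The rule removes no doublets. Scrublet, which scores barcodes against simulated doublets, called 0 members. It called 166 kept barcodes (C1), 0 (C2), 2 (C3) and 116 (C4), and with so few calls in C2 and C3 it has not worked there. Of the members, 1 of 89, 12 of 467, 62 of 320 and 2 of 11 lay in the 5% of barcodes with the highest scores. Without these the C3 share of members was 5.10%.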

How the data were processed

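The deposited UMI counts of 4 expression libraries (32285 genes each) were read as the authors deposited them, per the file headers written by Cell Ranger 4. The submitters' processing notes name Cell Ranger 6.1.2, STAR 2.7.10a and mm10. The labels' protocols name BD Rhapsody and the design text names 10x. Libraries C1 to C4 matched no label and stayed separate. Kept barcodes numbered 5616, 5067, 8532 and 5957. Levels are summed UMIs per 1000000 (CPM). Ratios are of summed levels, counted past 2-fold for genes with at least 100 UMIs over both classes of at least 50 barcodes each. With 1 library per combination of genotype and tissue there was no test.

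The members and the 27 gene lists were chosen with earlier results of these data known. Genes were named by rule: the 5 identity markers, up to 6 leading and the most variable gene of each list, and the 10 highest and lowest ratios on 1 side in every library compared. Ccl3, Gzma, Klrg1, Tox and other genes outside this rule were named after their values were seen. Doublets were scored with Scrublet in scanpy 1.11.5. The ratio code was tested on simulated data. Alternatives covered depth, mitochondrial limit, doublets, thinning, gate limits, gene minimum, free RNA, weighting and denominator. Coordinates are from RefSeq genes of mm10. Some genes that the naming rule selects are not reported here.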

Additional observations from a re-analysis of the deposited data

How the results depend on the processing

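No paired analysis was possible because the labels number no replicates and no library could be tied to a group. Of 130 counts and shares under the alternatives, 90 stayed within their limits and 40 moved. The levels of the 98 genes followed could not move with at least 1000 UMIs per barcode, since every member stayed. At most 5% mitochondrial UMIs moved none of them, but left out few members: 463 stayed in C2 and 318 in C3, and all in C1 and C4. Thinning moved 48 levels in C1, 18 in C2 and 38 in C3, of which 15, 5 and 7 changed by over 1.5 times. At least 2 Gzmk UMIs moved 51, 7 and 33, a checkpoint sum of 0 moved 32, 32 and 27, and the mean over barcodes moved 35, 28 and 45. Leaving out salivary-rich barcodes moved 28 in C1, and leaving out the top doublet scores moved 20 in C3. The cause of each change was not tested. Few members limit C4, and salivary RNA limits C1 and C2.

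The member share of CD8 barcodes was 26.99%, 17.66% and 4.491% in C1, C2 and C3 with at least 2 Gzmk UMIs, and 26.99%, 10.12% and 3.892% with no checkpoint UMI. It was 23.77% in C2 after thinning and 5.095% in C3 without the top 5% of doublet scores. As a share of CD3 barcodes it was 9.684%, 13.18%, 4.35% and 0.2996% in C1 to C4, and of all kept barcodes 1.585%, 9.216%, 3.751% and 0.1847%. C1 led by the CD8 denominator, and C2 by these other denominators.

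Genes past 2-fold higher than in Ccl5-bearing barcodes numbered 5 of 823 in C1 and 54 of 2778 in C2 after thinning, 4 in C1 with at least 2 Gzmk UMIs, and 46 in C2 with no checkpoint UMI. With at least 50 UMIs per gene they numbered 29 and 290, and without barcodes rich in salivary UMIs, an alternative chosen after seeing the data, 5 and 41. Genes lower numbered 12 in C1 and 15 in C2 with no checkpoint UMI, 27 and 79 with at least 50 UMIs per gene, 16 of 2778 in C2 after thinning and 2 in C1 without salivary-rich barcodes.

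Genes higher than in checkpoint-high barcodes numbered 9 in C1 with at least 2 Gzmk UMIs and 9 without salivary-rich barcodes, 27 in C1 and 46 in C3 with at least 50 UMIs per gene, and 51 of 6520 in C2 after thinning. Genes lower numbered 67, 659 and 471 in C1, C2 and C3 with at least 50 UMIs per gene, and 189 of 6520 in C2 and 17 of 2438 in C3 after thinning. Thinning leaves out barcodes under 4042 UMIs and fewer genes reach the minimum. Thinned, C1 had too few checkpoint-high barcodes for a count.

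Log2 ratios that changed sign against checkpoint-high barcodes were H2-Aa at 0.174 and H2-Eb1 at 0.330 in C1 and Gzmc at 1.323 in C2 without the top doublet scores. Top2a was at -0.078 in C1 with no checkpoint UMI. After thinning, Gzmc was at 0.153 in C2, and Fcer1g at 2.275 and Tyrobp at 0.959 in C3. Against Ccl5-bearing barcodes, Fcer1g was at 2.643 in C3 after thinning.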

Other observations

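Other repeated V gene pairs were seen in members of a single library or nearly so. Trbv30 with Trav12-3 was in 7 of 228 members of C3 with both chains (3.07%) and in 1 of 336 in C2. Trbv2 with Trav16n was in 8 of 336 members of C2 (2.38%) and in 0 of 228 in C3, which allows up to 1.32%. In C1, gamma-delta receptor genes Trdc or Trdv4 had a UMI in 11 of 61 checkpoint-high barcodes and in 2 of 89 members.

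The Gzmk edge of the rule differed between libraries in its Ly6c2 levels. In C3, Ly6c2 stood at 2593 CPM in checkpoint-low barcodes with no Gzmk UMI, 1685 in members with 1 and 818.1 in members with 2 or more. In C1 the same steps were 1244, 925.7 and 1293 CPM, and in C2 they were 854.9, 837.2 and 718.8.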
